A study of Rattus norvegicus with 8 samples.

Results

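The proteasome genes of rat liver were followed across 8 two-colour Agilent arrays, 4 from control offspring and 4 from offspring exposed during development to agonists of the aryl hydrocarbon receptor (AhR). Members were all genes whose RefSeq symbol starts with Psma, Psmb, Psmc, Psmd or Psme followed by a digit, a rule that used no measured difference. The RefSeq table of assembly GRCr8 holds 48 such protein-coding symbols, of which 43 had a probe on the array by RefSeq accession. Each gene was represented by its probe of highest mean Cy5 signal and was kept where the scanner flagged that channel well above background on 4 arrays or more. This left 42 members among 10003 kept genes, and all 42 were well above background on all 8 arrays. Psma8, the testis form of an alpha subunit, was above background on 3 arrays and was left out. Psmb11, Psmb3l1, Psmb3l2, Psmb6l1 and Psmd11 had no matched probe and were not analysed here, and 46 pseudogene symbols that meet the rule were not counted; whether member probes also bind pseudogene transcripts was not tested. Psmc3ip, a meiotic recombination factor, and Psme3ip1, a protein that binds the PA28 gamma activator, meet the rule by name alone and are not subunits, so 40 members had a role in the proteasome.

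The rats were male Sprague-Dawley, 78 to 86 days old, and both groups had stayed with their birth mothers. Control dams received corn oil only. AhR dams received a mixture of AhR agonists, made up of polychlorinated dibenzodioxins, polychlorinated dibenzofurans and non-ortho-PCBs, at 1.8 ng of TCDD toxic equivalents per kg per day, from gestation day 0 to postnatal day 20, so that tissue was taken well after dosing had ended. Each array held RNA pooled from 2 rats, so a group of 4 arrays drew on 8 pups. Litters are not given for the pools, so p-values measure the spread between these pools. Cy5 labelled the liver RNA and Cy3 a universal rat reference, described as RNA of 14 rat cell lines, on all arrays and without a dye swap. All levels are therefore log2 ratios of liver over reference, open to dye bias, and differences are AhR minus control on this log2 scale. The question put to these samples is whether dosing of the dams that ended on postnatal day 20 still marks the adult liver transcriptome of the offspring.

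The proteasome degrades proteins tagged with ubiquitin. Its 20S core is a barrel of outer alpha rings and inner beta rings, and only the beta subunits encoded by Psmb5, Psmb6 and Psmb7 cut peptide bonds in the constitutive form. Interferon induces the replacements Psmb8, Psmb9 and Psmb10, which form the immunoproteasome and alter the peptides offered to T cells. The 19S cap recognises, unfolds and feeds in substrates through a base with ATPases and a lid, and PA28 and PA200 are alternative caps. Transcription of most subunit genes is driven together by NRF1 (Nfe2l1), and in oxidative stress by NRF2 (Nfe2l2), a factor that also shares targets with the AhR in liver.

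The median Cy5 signal per array ran from 159 to 232 units over a local background of 71 to 76, Cy5 was well above background for 56.2% to 62.0% of probes, and no probe was saturated in Cy5. All 15 hepatocyte markers listed were above background on all 8 arrays. Their median log2 ratio per array, after loess, lay between -0.07 and 0.28, although the label of the reference names cell lines. Loess centres the ratios of an array along brightness. The values therefore show that these liver genes lay near other genes of like brightness, and not that both channels were equally bright. Across probes, Cy5 and Cy3 signals of an array correlated at 0.987 to 0.990, and the log2 ratios of any 2 arrays at 0.395 to 0.728. Probes are not independent replicates. The reference is the same on every array per the labels and serves as a common denominator in the group comparison.

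The mean log2 ratio over the 8 arrays ran from -0.30 for Psma4, an alpha ring subunit, to 0.24 for Psme3, which encodes PA28 gamma. On single arrays the members ranged more widely, as with Psme4 at -0.71 and Psme3 at 0.57 on control arrays. For 36 of the 42 members the mean was within 0.2 of 0, or 85.7%, a share near the 77.8% of all kept genes. The median of the members was -0.02, but with median centring in place of loess it was 0.24 and 17 members were within 0.2 of 0, so that the sign of a small ratio depends on the dye correction. The median within-group SD was 0.146 for the members beside 0.169 over all kept genes. Of the 42, 27 were below the latter, and 10 were above the 75th percentile of all kept genes. The members were also bright: 41 of the 42 were above the median Cy5 signal of all kept genes and 31 above its 75th percentile. Genes of like brightness were not compared. Psmc2, an ATPase of the base, had the smallest spread of the members at 0.0454, and Psmb8 had the largest at 0.299.

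No proteasome gene passed the test between AhR and control. limma with Benjamini-Hochberg adjustment over all 17857 kept probes called 0 probes at an adjusted p of 0.05, which is 0%, and 0 of the 42 members. At an unadjusted p under 0.05 limma listed 288 probes, or 1.61%, and 1 member, Psmb10. The groups did not overlap for 112 probes higher in AhR, or 0.627%, and for 100 probes lower in AhR, or 0.56%; among the members this held for 0 higher and for 1 lower, again Psmb10. Of the members, 26 had a difference above 0 and 16 below 0. This is 61.9% above 0, beside 49.5% of all kept genes. The median was 0.02 beside -0.00 over all kept genes, and it was -0.01 without AhR 2 and 0.003 without Control 1. The median size of a difference was 0.056 for members and 0.072 for all kept genes, not matched for brightness.

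The intervals show how large a difference these arrays leave room for after loess normalization, and they depend on that choice. With median centring the median within-group SD of the members was 0.28 in place of 0.146. The SE of Psmb10 was then 0.18 in place of 0.10. After loess, the 95% interval of limma lay within 1.5-fold in either direction for all 42 members. It did so for 91.7% of all kept genes, again not matched for brightness. The widest reaches were -0.50 at the low end, for Psmb9, and 0.53 at the high end, for Psme3. The measured differences themselves ran from -0.24 for Psmb10 to 0.17 for Psme3. For 39 of the 42 members, leaving out 1 array moved the difference by over 1.5 times, so the order of these small values is not firm. Less RNA per cell and fewer cells of a type cannot be told apart in these bulk samples.

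**Figure D1:**
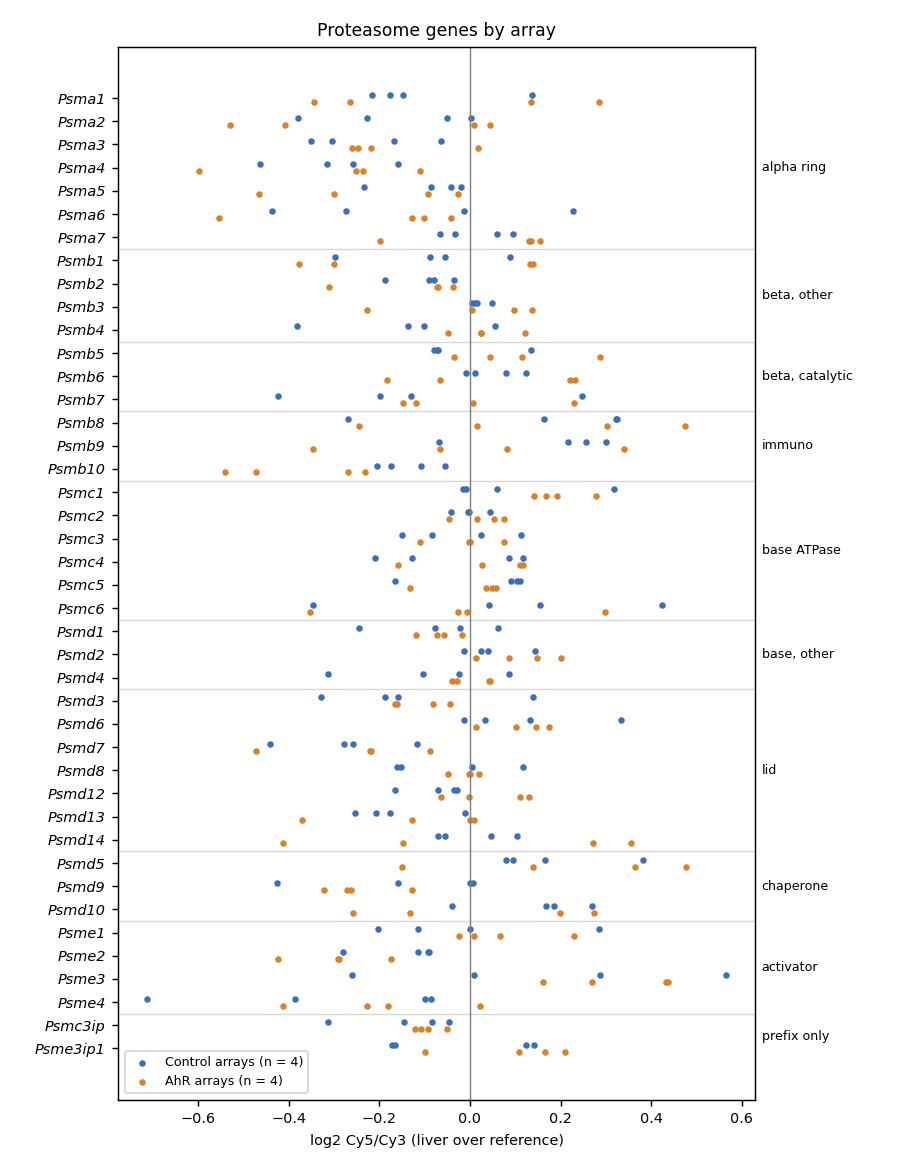
Log2 Cy5/Cy3 (x axis, liver over reference) of the 42 kept genes, in rows grouped by role; each point is 1 array, blue for the 4 control arrays and orange for the 4 AhR arrays. Points of both groups intermingle in every row except Psmb10, where all 4 AhR points lie left of all 4 control points.

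**Figure D2:**
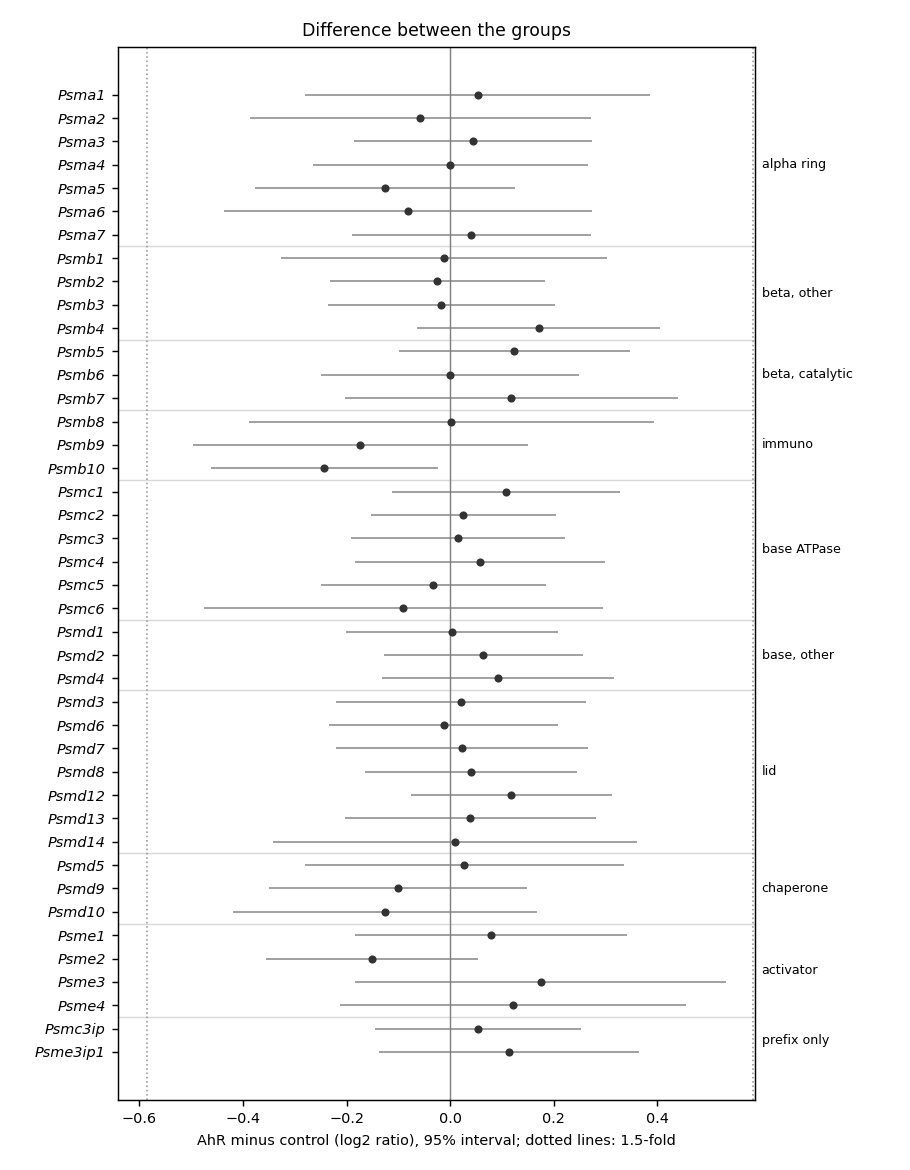
AhR minus control of the log2 ratio (x axis) for the 42 kept genes; points are limma estimates from 4 arrays a group, bars are 95% intervals, and dotted lines mark 1.5-fold. Every bar lies between the dotted lines, and only that of Psmb10, from -0.46 to -0.02, does not include 0.

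The 7 measured alpha ring genes, which form the gate and the docking surface of the core, showed 3 differences above 0 and 4 below, with a median of -0.00. Psma5 had the smallest p of the ring. Its log2 ratios were -0.04, -0.02, -0.23 and -0.09 on the control arrays and -0.46, -0.03, -0.09 and -0.30 on the AhR arrays. Arrays AhR 1 and AhR 4 were the lowest, the other AhR arrays lay within the control range, and the difference of -0.13 (SE 0.11) did not pass (limma adjusted p = 1.00). Psma6 had 0.23, -0.01, -0.27 and -0.44 in control and -0.55, -0.04, -0.13 and -0.10 in AhR. Here the control arrays were more scattered than 3 of the AhR arrays, and the difference was -0.08 (SE 0.16). The other alpha genes, Psma1, Psma2, Psma3, Psma4 and Psma7, had differences between -0.06 (Psma2) and 0.05 (Psma1).

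Of the 4 beta ring genes that carry no active site, 1 was above and 3 were below 0. Psmb4, the last beta subunit to join the core during assembly, had log2 ratios of -0.10, -0.14, -0.38 and 0.06 in control and 0.02, 0.02, 0.12 and -0.05 in AhR. Only Control 4 reached the AhR range among the control arrays. The difference of 0.17 (SE 0.11, 95% interval -0.06 to 0.41) had an unadjusted limma p of 0.137 and an adjusted p of 1.00; without Control 4 the unadjusted limma p was 0.0478. Psmb2 had -0.08, -0.09, -0.19 and -0.04 in control and -0.31, -0.04, -0.07 and -0.07 in AhR, where AhR 1 alone was apart. Its difference of -0.02 (SE 0.09) was 0.04 with median centring and 0.02 in the authors' value table. Psmb1 and Psmb3 differed by -0.01 and -0.02, and Psmb3 was nearly constant in control, with an SD of 0.02 against 0.16 in AhR (n = 4 each).

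The 3 constitutive catalytic genes had overlapping groups. Psmb5, the chymotrypsin-like subunit, had log2 ratios of -0.07, -0.07, -0.08 and 0.14 in control and 0.11, 0.05, 0.29 and -0.04 in AhR. All AhR arrays were above the 3 lower control arrays, and Control 4 lay among the AhR arrays. The difference was 0.12 (SE 0.10, 95% interval -0.10 to 0.35; exact two-sided permutation p = 0.20, where the smallest possible with 4 against 4 is 0.0286). Psmb6, the caspase-like subunit, had 0.01, 0.08, -0.01 and 0.12 in control and -0.07, 0.23, 0.22 and -0.18 in AhR. The AhR arrays bracketed the control arrays, and the group means were both 0.05 (exact permutation p = 1.00). Psmb7, the trypsin-like subunit, had -0.42, -0.20, -0.13 and 0.25 in control and -0.12, 0.01, 0.23 and -0.15 in AhR. The control arrays spanned the whole AhR range, and the difference was 0.12 (SE 0.15, exact permutation p = 0.457). It was 0.02 without Control 1, 0.04 without AhR 3 and 0.24 without Control 4.

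Psmb10 (MECL-1), the immunoproteasome counterpart of Psmb7, was the member whose groups stood apart. Its log2 ratios were -0.11, -0.21, -0.17 and -0.05 on the control arrays and -0.47, -0.27, -0.23 and -0.54 on the AhR arrays. The highest AhR array lay just below the lowest control array, with AhR 1 and AhR 4 furthest down. The means were -0.14 ± 0.07 (SD, n = 4) and -0.38 ± 0.15 (SD, n = 4), a difference of -0.24 (SE 0.10, 95% interval -0.46 to -0.02). limma gave an unadjusted p of 0.0329 and an adjusted p of 1.00, and the exact permutation p was 0.0286, the smallest that 4 against 4 can give. With 1 member in 42 apart, the share is to be read beside the 0.56% of all probes that stood apart in this direction and the 0.627% in the other. No direction was set beforehand, and these p-values are not adjusted for the choice of Psmb10 among the members. Within the slide's rows, which held 2 arrays of each group, the difference was -0.26 in the first row and -0.22 in the second. Because the groups stand apart, neither row could have given the other sign.

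The separation of Psmb10 depended on the processing. It was barely present with Agilent processed signals, where the highest AhR array, at -0.2399, was nearly level with the lowest control array, at -0.2389. The groups stayed apart with Agilent processed signals (difference -0.21, unadjusted limma p = 0.109) and in the authors' value table (-0.23, unadjusted limma p = 0.0522). With median centring the difference was -0.17, the groups overlapped and the unadjusted limma p was 0.348. With the Cy5 channel alone it was -0.22, the groups again overlapped and the unadjusted limma p was 0.114. Leaving out Control 1, Control 4, AhR 1 or AhR 4 gave differences of -0.23, -0.22, -0.21 and -0.19 with unadjusted limma p of 0.0618, 0.0741, 0.0838 and 0.0960. The sign was negative in all 18 alternative settings, but most of these could not have turned it. Filters, blocks, the variance model and the mean over probes leave the estimate of this single-probe gene as it is. Leaving out 1 array cannot turn the sign while the groups stand apart. Only processed signals, median centring, Cy5 alone and the value table could have done so.

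The other immunoproteasome genes did not share that separation. Psmb8 (LMP7), the counterpart of Psmb5, had log2 ratios of -0.27, 0.32, 0.32 and 0.16 in control and 0.02, 0.30, 0.48 and -0.24 in AhR. Control 1 and AhR 4 were the low arrays, AhR 1 lay near 0 and the others were higher, and the group means were both 0.14 (difference SE 0.18, exact permutation p = 0.943). Psmb9 (LMP2), the counterpart of Psmb6, had -0.07, 0.30, 0.26 and 0.22 in control and -0.07, 0.08, 0.34 and -0.35 in AhR. Again Control 1 and AhR 4 were the low arrays, here joined by AhR 1 at the level of Control 1. The difference of -0.17 (SE 0.15, 95% interval -0.50 to 0.15) had an exact permutation p of 0.371. Within the slide's rows Psmb9 differed by -0.23 and -0.12. The mean difference over Psmb8, Psmb9 and Psmb10 was -0.14. It was -0.04 without AhR 4, -0.23 without AhR 3, -0.21 without Control 1 and -0.07 with median centring.

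Each immunoproteasome gene was set against the constitutive gene it replaces, as the difference of their log2 ratios on the same array, in which changes common to both cancel. Psmb8 minus Psmb5 was 0.16 ± 0.29 over the 4 control arrays and 0.03 ± 0.22 over the 4 AhR arrays (mean ± SD). Psmb9 minus Psmb6 was 0.12 ± 0.15 and -0.05 ± 0.13 in the same order. Psmb10 minus Psmb7 was 0.32, -0.01, -0.04 and -0.30 on the control arrays and -0.35, -0.28, -0.46 and -0.39 on the AhR arrays. The AhR arrays were closely grouped at -0.37 ± 0.08 (SD, n = 4) and the control arrays wide at -0.01 ± 0.25 (SD, n = 4), and Control 4 lay inside the AhR range. Psmb8 itself differed by 0.00 between the groups and Psmb5 by 0.12, so the first contrast came from Psmb5. Psmb9 and Psmb6 differed by -0.17 and -0.00, and Psmb10 and Psmb7 by -0.24 and 0.12. All 3 contrasts were lower in AhR, by 0.12, 0.17 and 0.36, and each overlapped between the groups. With each array left out in turn they ran from -0.24 (without Control 1) to -0.04 (without Control 2, Control 3 or AhR 4) for Psmb8 minus Psmb5, from -0.24 to -0.13 for Psmb9 minus Psmb6 and from -0.46 to -0.25 for Psmb10 minus Psmb7.

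**Figure D3:**
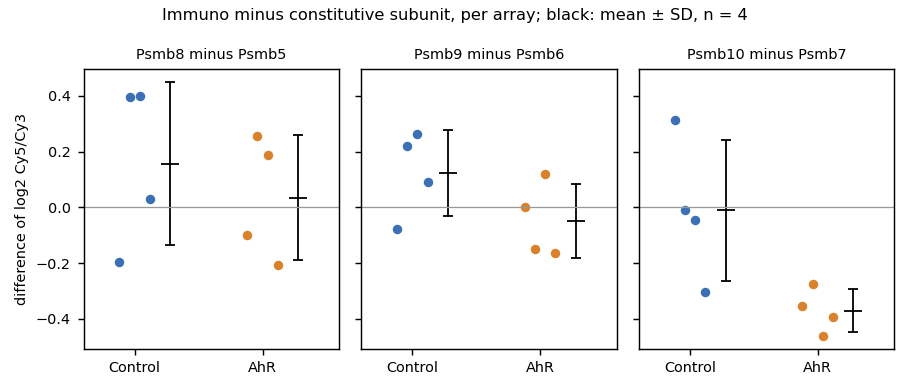
Difference of log2 Cy5/Cy3 between an immunoproteasome gene and the constitutive gene it replaces (y axis), per array; points are arrays, and black bars are the mean and SD of the 4 arrays of a group. The AhR points of Psmb10 minus Psmb7 lie between -0.46 and -0.28, and 1 control point, at -0.30, lies among them.

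Psmb8 and Psmb9 lie beside the peptide transporter genes Tap1 and Tap2 in the rat MHC, and Psmb10 lies elsewhere. Promoters were searched for the letters bound by regulators of these genes, in the 250 bases before the start in RefSeq (GRCr8), which the table holds for 39 of the 43 members. The stretches of Psmb5, Psmb8 and Psmb10 are shown because they hold matches of catalytic genes outside the annotated gene: capitals mark TGACNNNGC in Psmb5 (the antioxidant response element core, bound by NRF1 and NRF2), TTCNNNGAA in Psmb8 (the gamma-activated site) and, in Psmb10, the interferon-stimulated response element (GAAA, any 2 bases, GAAA). They span chr15:32047380-32047629, chr20:4657050-4657281 and chr19:50743293-50743542, all on the minus strand, and are printed 5′ to 3′ along the gene; that of Psmb8 is 232 bases, without bases inside the annotated gene.
Psmb5: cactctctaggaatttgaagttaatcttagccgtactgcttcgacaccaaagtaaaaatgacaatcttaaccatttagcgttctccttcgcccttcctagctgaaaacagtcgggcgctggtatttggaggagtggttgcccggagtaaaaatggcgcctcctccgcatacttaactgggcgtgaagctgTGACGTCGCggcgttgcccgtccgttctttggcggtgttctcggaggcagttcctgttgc
Psmb8: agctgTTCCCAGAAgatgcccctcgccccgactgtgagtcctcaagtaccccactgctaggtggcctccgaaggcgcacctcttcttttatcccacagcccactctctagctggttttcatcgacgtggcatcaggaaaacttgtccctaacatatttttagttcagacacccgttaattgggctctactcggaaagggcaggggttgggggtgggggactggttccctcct
Psmb10: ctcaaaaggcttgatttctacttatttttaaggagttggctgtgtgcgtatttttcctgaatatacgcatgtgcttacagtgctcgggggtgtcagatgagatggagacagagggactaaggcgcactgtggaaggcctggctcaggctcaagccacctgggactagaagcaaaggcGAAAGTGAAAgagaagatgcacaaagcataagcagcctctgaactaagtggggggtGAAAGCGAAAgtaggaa

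In Psmb10 the interferon-stimulated matches begin 73 and 17 bases before the start, in Psmb5 the TGACNNNGC match begins 60 bases before it, and in Psmb8 the TTCNNNGAA match begins 245 bases before the table's start, which for Psmb8 lies inside the annotated gene. Psmb6 has a TGACNNNGC match 24 bases before the table's start, also inside the annotated gene and so not shown, and Psmb7 and Psmb9 have none of these 3 motifs in the window. On either strand, TGACNNNGC was held by 7 of the 39 member promoters, or 17.9%, beside 10.1% of all 33469 promoters of that length. The interferon-stimulated element was held by 5 (12.8% beside 3.41%), TTCNNNGAA by 4 (10.3% beside 7.67%) and CCAAT, the box bound by NF-Y, by 20 (51.3% beside 34.0%). The core letters of the AhR response element, GCGTG, which overlap none of the capitals shown, were added after the group values were known. They were held by 19 (48.7% beside 25.9%), with Psmb4, Psmb5, Psmb9, Psme2, Psme3 and Psme4 among them and Psmb10 not. For every motif, the promoters set beside the members were not matched for base composition or expression. A match in these letters is a description and shows no binding.

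The 16 measured genes of the 19S cap differed by little, with 13 above 0, 3 below and a median of 0.02, which was 0.10 with median centring. Among the 6 ATPases of the base, which unfold the substrate, Psmc1 had log2 ratios of -0.01, -0.02, 0.06 and 0.32 in control and 0.17, 0.19, 0.28 and 0.14 in AhR. The AhR arrays stood above 3 of the control arrays and below Control 4, and the difference was 0.11 (SE 0.10, 95% interval -0.11 to 0.33). Psmc4 had -0.21, -0.13, 0.09 and 0.12 in control and 0.03, 0.11, 0.12 and -0.16 in AhR, with both groups over a similar range and a difference of 0.06 (SE 0.11). Psmc2, Psmc3, Psmc5 and Psmc6 differed by 0.03, 0.01, -0.03 and -0.09. Psmc6 was the most scattered ATPase gene, from -0.35 on Control 3 and AhR 4 to 0.42 on Control 1.

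All 3 measured non-ATPase genes of the base lay above 0, by 0.00 (Psmd1), 0.06 (Psmd2) and 0.09 (Psmd4). Psmd4 encodes a receptor for ubiquitin chains and had log2 ratios of -0.31, -0.10, 0.09 and -0.02 in control and 0.04, -0.03, 0.04 and -0.04 in AhR. Its AhR arrays kept within a narrow band inside the control range. Psmd2, a scaffold of the base, had 0.14, -0.01, 0.02 and 0.04 in control and 0.20, 0.01, 0.09 and 0.15 in AhR, again overlapping, with a difference of 0.06 (SE 0.09).

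The lid removes ubiquitin chains before degradation, and 6 of its 7 measured genes lay above 0, with a median of 0.02. Psmd12, a structural subunit, had log2 ratios of -0.07, -0.16, -0.04 and -0.03 in control and -0.00, 0.11, 0.13 and -0.06 in AhR. All AhR arrays but AhR 4 were above the control arrays, and the difference was 0.12 (SE 0.09, 95% interval -0.08 to 0.31; exact permutation p = 0.114). Psmd8 had -0.15, -0.16, 0.12 and 0.00 in control and -0.00, 0.02, -0.00 and -0.05 in AhR, with the AhR arrays inside the control range. Psmd14, the deubiquitinase of the lid, had means of 0.01 and 0.02 and SDs of 0.08 over the control arrays and 0.36 over the AhR arrays. Psmd3, Psmd6, Psmd7 and Psmd13 differed by 0.02, -0.01, 0.02 and 0.04.

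Psmd5, Psmd9 and Psmd10 share the Psmd name but encode chaperones that assemble the base and then leave it. Psmd10 (gankyrin) had log2 ratios of 0.17, 0.19, -0.04 and 0.27 in control and -0.26, 0.20, 0.27 and -0.13 in AhR. AhR 1 and AhR 4 were low and the other AhR arrays level with control, and the difference was -0.13 (SE 0.13). Psmd9 had 0.01, 0.00, -0.16 and -0.43 in control and -0.13, -0.32, -0.26 and -0.27 in AhR, a difference of -0.10 (SE 0.11) that was 0.01 by a second, dimmer probe. Psmd5 differed by 0.03.

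Among the activators, the subunits of PA28 that interferon induces lay on opposite sides of 0. Psme1 (PA28 alpha) had log2 ratios of -0.20, -0.11, -0.00 and 0.29 in control and 0.07, 0.01, 0.23 and -0.02 in AhR. The control arrays enclosed the AhR arrays, and the difference was 0.08 (SE 0.12, exact permutation p = 0.543). Psme2 (PA28 beta), its partner in the ring, had -0.09, -0.09, -0.11 and -0.28 in control and -0.42, -0.17, -0.29 and -0.29 in AhR. All AhR arrays were below the 3 higher control arrays, and Control 4 was level with the AhR arrays. The difference of -0.15 (SE 0.09, 95% interval -0.36 to 0.05) had an exact permutation p of 0.0571 and an adjusted limma p of 1.00.

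Psme3 (PA28 gamma), a nuclear activator, had a difference of 0.17, level with that of Psmb4, and the highest mean ratio of the members. Its log2 ratios were -0.26, 0.01, 0.29 and 0.57 in control and 0.44, 0.16, 0.43 and 0.27 in AhR, so that the control arrays spanned beyond the AhR arrays at both ends. The SE was 0.16 and the 95% interval -0.18 to 0.53, and the difference was 0.04 without Control 1 and 0.31 without Control 4. Psme4 (PA200) had -0.71, -0.10, -0.39 and -0.09 in control and -0.18, -0.41, 0.02 and -0.23 in AhR, with Control 1 the lowest and a difference of 0.12 (SE 0.15). A second, dimmer Psme4 probe gave a difference of -0.03, and its mean ratios were 0.28 and 0.25 where those of the brighter probe were -0.32 and -0.20, so the level of Psme4 against the reference was not settled. Psmc3ip and Psme3ip1, the members by name alone, differed by 0.05 and 0.11.

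The arrays differed in how they carried the members. AhR 4 was the lowest of the 8 arrays for 12 members, or 28.6%, beside 13.1% of all kept genes, and AhR 3 was the highest for 12, or 28.6%, beside 9.01%. AhR 2 and AhR 3 were the lowest for 0 members. The median of the immunoproteasome genes per array was -0.35 on AhR 4, 0.34 on AhR 3, -0.11 on Control 1 and between 0.16 and 0.30 on the other control arrays. In the alpha ring the lowest medians were on AhR 1, at -0.41, Control 3, at -0.26, and AhR 4, at -0.25. The medians of the ATPases stayed between -0.04 and 0.10. Pools of the AhR group thus lay at both ends of the member range.

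**Figure D4:**
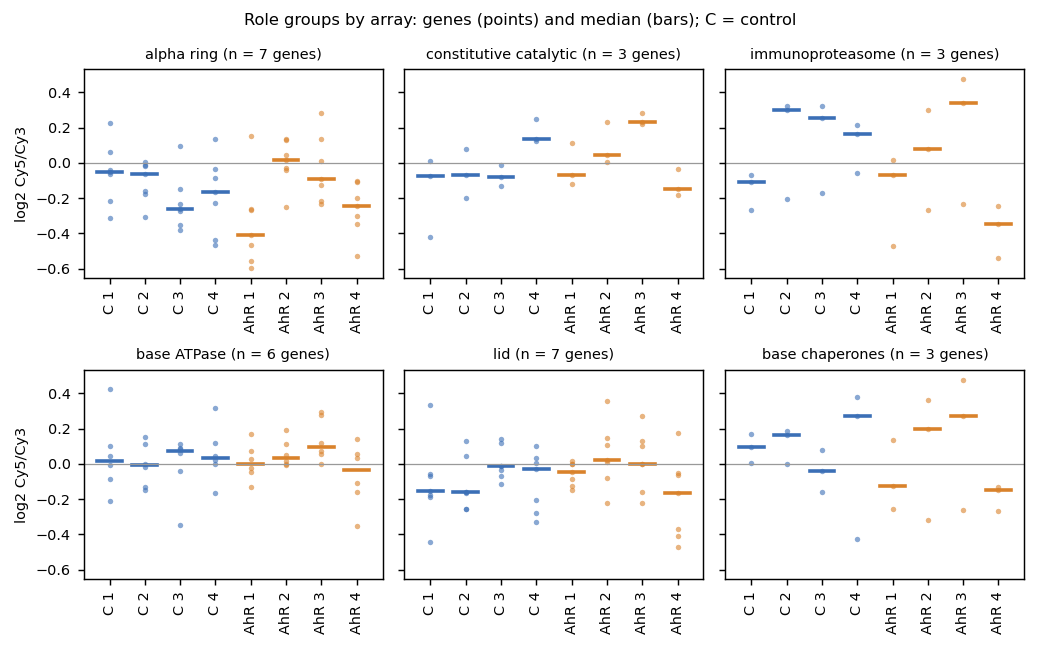
Log2 Cy5/Cy3 (y axis) of the genes of 6 role groups on each of the 8 arrays; points are genes, bars are medians, blue is control (C) and orange is AhR. The immunoproteasome bars run from -0.35 on AhR 4 to 0.34 on AhR 3, whereas the base ATPase bars stay between -0.04 and 0.10.

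Markers of other liver cells moved with some of these arrays. Of 12 Kupffer cell and macrophage markers, all above background on all 8 arrays, 11 were lowest on Control 1, where their median log2 ratio was -0.68, and none passed between the groups (11 above 0 and 1 below, median 0.15). Control 1 was also the lowest array for 8 members (Psmb7, Psmb8, Psmc4, Psmd4, Psme1, Psme3, Psme3ip1 and Psme4), or 19.05%, beside 18.1% of all kept genes. On AhR 4, the lowest array for Psmb9 and Psmb10, the macrophage median was -0.10 and 0 of the 12 markers were lowest. Of 14 lymphocyte markers 10 were measured, 6 of them lowest on Control 1 and 2 on AhR 4, and 3 were above and 7 below 0 between the groups. The summed Cy5 of the macrophage list ran from 54896 to 105613 units in control and from 72107 to 131154 in AhR, and that of the lymphocyte list from 1605 to 2352 and from 1916 to 2698. Red cell markers were lower in AhR for 6 of 6, with a median difference of -0.46. The median of this list per array was -0.49, 0.67, -0.63 and -0.51 in control and -0.92, -0.16, -1.31 and -0.77 in AhR. Control 2 alone was high, AhR 2 lay above the other control arrays, and the 6 genes are not independent. Hba-a3, an alpha globin gene, differed by -0.72 (SE 0.31), with an unadjusted limma p of 0.0386 and an adjusted p of 1.00. Its exact permutation p was 0.0857. Endothelial markers were higher for 7 of 7, with a median of 0.14. Tie1, a receptor of endothelial cells, had the smallest limma p of this list. It differed by 0.21 (unadjusted limma p = 0.0505, exact permutation p = 0.0286). Its groups did not overlap, beside 0.627% of all kept probes that stood apart with AhR higher. None of these markers passed the test. The part of other cell types in the values of Psmb8, Psmb9 and Psmb10 was not tested.

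Genes that act with the proteasome also gave 0 calls. Of the 7 measured regulators of its transcription, 3 lay above and 4 below 0. Nfe2l1 had log2 ratios of 0.47, 0.03, 0.23 and 0.12 in control and -0.05, -0.09, -0.01 and 0.27 in AhR, and Nfe2l2 had -0.06, 0.12, 0.28 and 0.23 against -0.27, 0.01, 0.12 and -0.01. Each differed by -0.18 (SE 0.12 and 0.11), with overlapping groups, and the core genes had a median difference of -0.00 and the cap genes of 0.02. Of 16 measured assembly factors and bound proteins, 8 lay above and 8 below 0, and Adrm1, a ubiquitin receptor of the cap, differed by 0.24 (SE 0.21). Of 9 ubiquitin and segregase genes, 4 lay above and 5 below 0, and the ubiquitin-activating enzymes Uba6 and Uba1 differed by -0.12 (SE 0.09) and 0.16 (SE 0.15).

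The partners of the immunoproteasome in antigen presentation had 5 of 11 measured genes above and 6 below 0, and 7 of the 11 were lowest on Control 1. Tap1 and Tap2, which carry the peptides into the endoplasmic reticulum, differed by -0.05 (SE 0.16) and 0.09 (SE 0.17), B2m, the light chain of MHC class I, by -0.13 (SE 0.13), and RT1-CE16, a class I heavy chain, by 0.28 (SE 0.16). Probes of class I heavy chains can share sequence with near copies, so the RT1-CE16 value is uncertain. Of the 23 measured interferon response genes 8 lay above and 15 below 0, with a median of -0.08 beside -0.00 over all kept genes, and 11 were lowest on Control 1. Irf1, a transcription factor that induces the immunoproteasome, differed by -0.21 (SE 0.16). Gbp5, an interferon-induced GTPase, had 0.03, -0.32, 0.13 and -0.07 in control and -0.34, -0.19, -0.35 and -0.47 in AhR, a difference of -0.28 (SE 0.11) at an unadjusted limma p of 0.0337 and an adjusted p of 1.00; its groups overlapped on Control 2. Gbp5 was the 1 gene of the interferon list under an unadjusted limma p of 0.05, and its exact permutation p was 0.0571.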

How the data were processed

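Per the file headers, the authors' scanner output (Agilent Feature Extraction, version 10.7.3.1) gives each spot's intensity as median pixel brightness with that of its local background. The deposited output also holds processed signals, which the software background-subtracted and dye-normalized, and their log10 ratio, which was not used. A deposited table of processed log2 values states neither scale nor centring: its column medians were 0.0057 to 0.0165, and its columns correlated with the log2 Cy5/Cy3 ratios used here at 0.990 to 0.994, so that its direction is Cy5 over Cy3. Background was corrected by normexp (offset 50) and arrays normalized by loess in limma 3.58.1 (R 4.3.3), with control spots and flagged spots at weight 0. Of 62976 spots per array 4259 were controls, and the rest gave 30367 probes; 17857 with Cy5 well above background on at least 4 arrays were kept. RefSeq accessions matched to the GRCr8 gene table named 18004 probes, 11655 of them kept, for 10003 genes. No probe coordinates are given, because the array design predates GRCr8.

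Groups were compared with lmFit and eBayes, adjusted over all kept probes, and single genes also by exact two-sided permutation. The procedure was tested on simulated data with noise drawn independently for each probe, so shifts of a whole array were not simulated. It recovered 49.0% of 1.5-fold, 83.9% of 2-fold and 97.0% of 3-fold changes. On average 10.2 unaltered probes were also called. The members and the gene lists were chosen with earlier results of these data known, and no pattern is offered as independent support. Values on every array are given for the catalytic and immunoproteasome genes, Psme1, Psme2 and the 2 members of smallest p in each other role; of other genes, Nfe2l1, Nfe2l2, Tap1, Tap2, B2m, Irf1 and the 2 of smallest p per list are named, except for results that are not reported here. Alternatives covered background correction, dye normalization, Cy5 alone, the filter on dim probes, replicate and slide-row blocks, the variance model, the value table, the probe per gene and each array left out. Protein identity between paired subunits was planned and not run, since no protein sequences were used here. Promoter sequences are from RefSeq (GRCr8).

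The labels number the pools 1 to 4 in each group without saying that a number is shared, and deviations of same-numbered pools correlated at 0.0026, -0.063, 0.048 and -0.37, so the numbers were not taken as pairs. The number of arrays limits the precision.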

Additional observations from a re-analysis of the deposited data

Results flagged for a closer look

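In groups of 4 arrays, 8 of the 84 member groups tested had 1 array far from the others by Dixon's 95% criterion, which chance meets in about 1 of 20 groups. This is 9.52%, beside 5.39% of the 20006 groups of all kept genes, and the member groups share the same 8 arrays and are not independent. In the AhR group, AhR 1 was apart for Psma6 (log2 ratio -0.55, the others -0.13 to -0.04), Psmb2 (-0.31, the others -0.07 to -0.04) and Psmc5 (-0.13, the others 0.04 to 0.06). AhR 4 was apart for Psma7 (-0.20, the others 0.13 to 0.15), and AhR 2 for Psma3 (0.017, the others -0.26 to -0.22). In the control group, the array apart was Control 4 each time: for Psmb5 (0.14, the others -0.08 to -0.07), Psmc5 (-0.17, the others 0.09 to 0.11) and Psme2 (-0.28, the others -0.11 to -0.09).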

How the results depend on the processing

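With 4 pools a group, 0 probes and 0 members passed an adjusted p of 0.05 in any setting run. The number of probes at an unadjusted limma p under 0.05 was 288 of 17857. It was 172 with median centring, 819 without Control 4 and 505 without AhR 4. Without a filter on dim probes it was 715 of 30367. Of the 42 members, 18 kept the sign of their difference in all 18 alternative settings. Filters, blocks and the variance model leave a difference as it is, so those settings could not turn a sign. Median centring moved the 19S cap median to 0.10, the median ratio to the reference to 0.24 and the median within-group SD to 0.28; the median difference of all probes was then 0.04.

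With all arrays in, the sign turned in at least 1 setting for 11 of the 42 members, all with small differences: Psma2, Psma4, Psmb1, Psmb2, Psmb3, Psmb6, Psmb8, Psmc2, Psmc5, Psmd6 and Psmd14. Among the genes given in full this was so for Psmb6 (0.024 with Agilent processed signals, 0.078 with median centring, 0.033 with Cy5 alone, 0.010 in the value table), for Psmb8 (-0.039 with processed signals, -0.047 with Cy5 alone), for Psmb2 (0.038 with median centring, 0.020 in the value table) and, outside the members, for Tap1 (0.019 with median centring); the cause was not tested. With each array left out in turn, differences ranged from -0.061 to 0.078 for Psmb6, -0.13 to 0.13 for Psmb8, -0.19 to 0.035 for Psma6, -0.054 to 0.038 for Psmb2, -0.00096 to 0.12 for Psmc4, -0.0089 to 0.20 for Psme4, -0.16 to 0.10 for Tap1 and -0.061 to 0.20 for Tap2. The choices for the reference ratio and for the spread were added after the data were seen.

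With a replicate block, 0 probes passed, all differences stayed as they were, and the unadjusted limma p of Psmb10 was 0.0776 in place of 0.0329; the numbers do not pair the pools, and 0 of the 4 correlated best with its own number.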
